A study of Mus musculus with 2 samples.

Results

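The genes described here are type I interferon-stimulated genes, the transcripts that cells switch on when interferon alpha or beta reaches them. A fixed list of 44 symbols was looked up in the expression matrix of a tumour from mice given an antibody against SIGLEC15. Of these, 43 had a row among its 18685 genes, and no row was named Mx2. Their choice used no measured value, though it was made with earlier results of these data known.

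The tumours were percutaneous grafts of Hep1-6, a mouse hepatoma cell line, in wild type male C57BL/6 mice aged 6 to 8 weeks. The mice were given either IgG or SIGLEC15 antibody into the peritoneal cavity. SIGLEC15 is a sialic acid-binding receptor of myeloid cells. The design text gives 3 mice per treatment, and 1 library was made per treatment with the 10x 3' assay, from a mix of CD45 bead-enriched and unsorted tumour cells. The antibody library held 5482 cells and 74168827 UMIs (unique molecular identifiers, each standing for 1 captured RNA molecule), with a median of 13714.5 UMIs per cell and a range of 553 to 46558. The authors gave every cell the name of 1 of 30 clusters. The IgG matrix had 105 complete gene rows, and 0 of the 44 genes were among them, so the effect of the antibody on these genes was not analysed here. The 2 libraries had 11 cell barcodes in common. All values below come from the antibody library.

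Type I interferons signal through the receptor chains IFNAR1 and IFNAR2 and the kinases JAK1 and TYK2, which activate STAT2 and its partners. Together with IRF9, STAT2 acts at a DNA element called ISRE in front of the target genes. Interferon gamma uses another receptor and acts through an element called GAS, and many genes answer to both. The targets include RNA-binding antiviral proteins, sensors of foreign nucleic acid, and the factors STAT2, IRF7 and IRF9 themselves, which extend the response.

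Promoter windows are shown for some of the genes described below, to give the ISRE letters in their sequence context. RefSeq windows on GRCm38.p6, from 250 bases before to 50 bases after a transcription start, were matched by symbol for 34 of the 44 genes. The ISRE letters searched were GAAA, any 2 bases and GAAA again, on either strand and with overlaps counted. They were present in 14 of these 34 genes (41.2%), against 3.99% of 27025 genes with a window. The GAS letters TTCNNNGAA, which read the same on both strands, were present in 6 of 34 (17.6%), against 9.55% of all. The stretches below are given 5′ to 3′ on the gene's strand with 20 bases on each side, and capitals mark the bases of an ISRE match on either strand. They are shown because Isg15, Ifit1, Ifit3, Ifit3b and Rsad2 were among the genes that set MDSC_3 apart, while Bst2 had the same letters and a different pattern across clusters. Windows of Ifit2, which had the highest ratio in MDSC_3, and of Herc6, Cmpk2, Irf7 and Oasl2 had 0 matches.
Isg15: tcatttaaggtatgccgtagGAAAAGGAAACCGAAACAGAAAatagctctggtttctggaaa
Ifit1: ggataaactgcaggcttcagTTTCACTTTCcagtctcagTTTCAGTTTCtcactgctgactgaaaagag
Ifit3: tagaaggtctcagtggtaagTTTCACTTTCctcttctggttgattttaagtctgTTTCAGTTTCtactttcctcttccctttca
Ifit3b: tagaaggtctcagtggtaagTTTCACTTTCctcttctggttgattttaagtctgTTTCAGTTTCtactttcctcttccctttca
Rsad2: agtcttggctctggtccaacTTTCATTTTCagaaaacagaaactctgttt
Bst2: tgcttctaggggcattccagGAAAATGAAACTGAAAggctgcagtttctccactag

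The Isg15 stretch is at chr4:156200855-156200916 on the minus strand and holds 3 overlapping matches. The Ifit1 stretch is at chr19:34640765-34640833 on the plus strand and holds 2. Ifit3 (chr19:34583353-34583436) and Ifit3b (chr19:34607749-34607832), neighbouring paralogues on the plus strand, have the same 84 bases with 2 matches each. The Rsad2 stretch is at chr12:26456543-26456592 on the minus strand with 1 match, and that of Bst2 at chr8:71537567-71537622 on the minus strand with 2 overlapping matches. In MDSC_3 against the other neutrophil-like clusters, described below, the median ratio was 3.68 over the 14 genes with the letters and 2.91 over the 17 without them that passed the UMI minimum. In the other comparisons these medians were 2.26 and 2.22 for Tumor_9, 1.28 and 1.24 for DC, and 28.7 and 4.14 for immune against Tumor clusters. These are letter matches, and binding was not measured.

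Summed over the cells of a cluster, the 43 genes took from 0.0600% of UMIs in Tumor_1 to 2.29% in MDSC_3, a 38.2-fold range over the 26 clusters with at least 50 cells. In all cells together the share was 0.131%. MDSC_3, with 180 cells, was followed by MDSC_2 at 0.817% (95% interval 0.779 to 0.857), MDSC_1 at 0.712% and MDSC_4 at 0.650%. Intervals here are exact (binomial for shares, Poisson for single genes, conditional for ratios) at the 95% level and cover counting error only. The spread between cells was wider than counting, since the variance of the genes' UMIs over cells was 3.66 to 31.7 times that of a Poisson count in these 26 clusters. With 1 library there is no replicate check of any value.

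Below the MDSC clusters came Macrophage_3 at 0.568% and the cluster named DC at 0.537%, whose intervals overlapped. Fibroblast&Endothelial_1 followed at 0.424%, above Macrophage_2 at 0.308%, Macrophage_1 at 0.287% and Fibroblast&Endothelial_2 at 0.281%. Next were CD3_T at 0.249% and Macrophage_4 at 0.248%, and neighbours from Macrophage_1 to Macrophage_4 in this order had overlapping intervals. Tumor_9, at 0.181%, overlapped with CD8_T_2 at 0.168%, while CD8_T_1 at 0.0986% was among the hepatoma clusters. The other hepatoma clusters took 0.0600% to 0.102%. The remaining small clusters, under 50 cells each, took 0.357% in CD4_T (47 cells), 0.254% in B (18), 0.191% in MDSC_5 (37) and 0.0183% in Adipocyte (2).

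**Figure D1:**
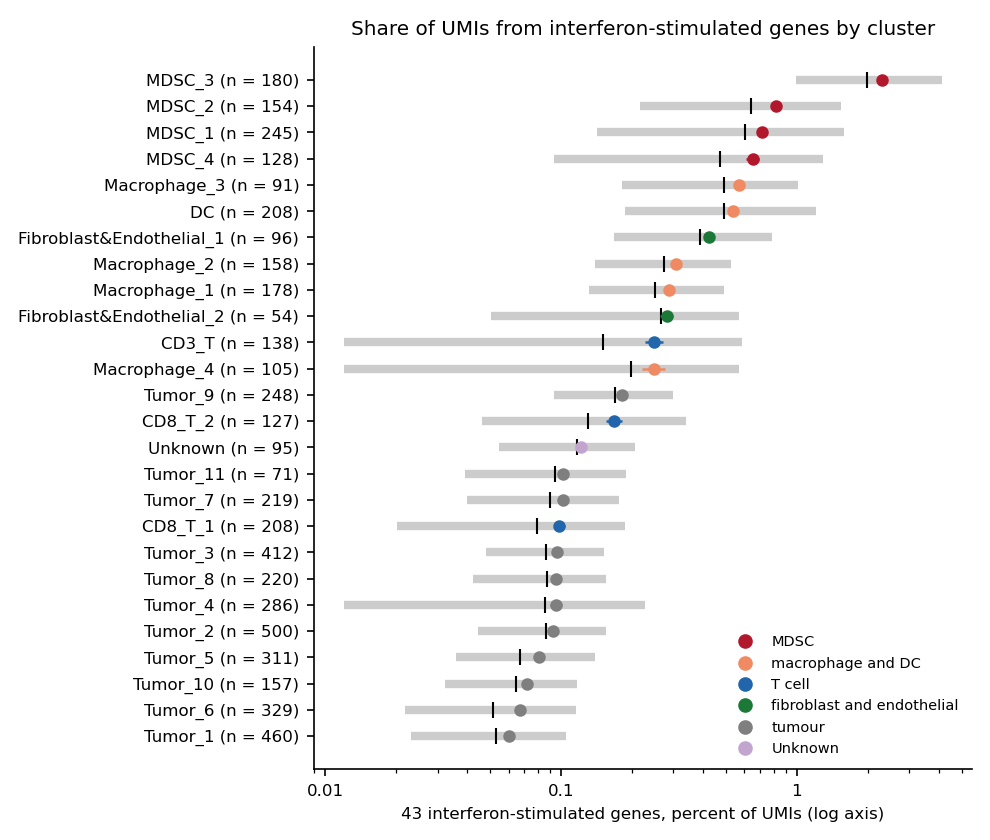
Share of each cluster's UMIs in the 43 genes, in percent on a log axis, for the 26 clusters with at least 50 cells. Dots are pooled shares with exact 95% intervals, grey bars the 10th to 90th percentile of single cells (drawn from the left end where the 10th percentile was 0) and ticks the median cell; MDSC_3 is highest at 2.29% and Tumor_1 lowest at 0.0600%.

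The cluster names were checked against marker genes. MDSC_1 to MDSC_4 had summed neutrophil marker levels of 23859 to 141359 CPM (UMIs per 1000000 UMIs of the group), with Csf3r at 1032 to 1779 CPM. MDSC_5 had 1034 CPM of neutrophil markers beside 8249 CPM of hepatoma markers and is left out of the neutrophil-like clusters. The markers of the DC cluster were mixed. Its conventional dendritic cell markers summed to 336 CPM against 339 CPM in the macrophage clusters. Of these sums Itgax took 207 CPM in DC and 102 to 465 CPM in single macrophage clusters. Xcr1 (8.63 CPM in DC, 0 to 22.7 in macrophage clusters) and Ccr7 (33.4, 1.68 to 52.9) were also within the macrophage range. Cd209a (52.8 CPM in DC, at most 12 in a macrophage cluster), Flt3 (10.8, at most 1.14) and Zbtb46 (14.0, at most 5.14) were higher in DC, and Clec9a (9.70, at least 10.1) was lower. Its monocyte markers reached 2788 CPM against 363, and the authors' name is kept as a name only. The 11 Tumor clusters had 8593 to 25581 CPM of hepatoma markers. Hepatoma markers were also detected in every immune cluster, with 1284 CPM in MDSC_3 and 1126 to 1205 CPM in MDSC_1, MDSC_2 and MDSC_4.

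Over the 26 clusters with at least 50 cells, 36 of the 43 genes had their highest level in MDSC_3. The exceptions were Ifi27l2a and Dhx58 (highest in Macrophage_3), Ms4a4c (DC), Lgals3bp (Fibroblast&Endothelial_1), Bst2 (Fibroblast&Endothelial_2), Ifi44 (Macrophage_4) and Trim25 (MDSC_4). Some peaks were near ties. Eif2ak2 was at 79.7 CPM in MDSC_3 and 79.2 in Fibroblast&Endothelial_1, and the Slfn2 intervals of MDSC_3 and MDSC_2 overlapped. Ifi27l2a was at 1832 CPM in Macrophage_3 and 1802 in MDSC_3, and the Ifi44 peak rested on 6 UMIs. The share of all genes with their peak in MDSC_3 over these 26 clusters is not given here. Levels of different genes are not compared, since capture differs between transcripts.

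**Figure D2:**
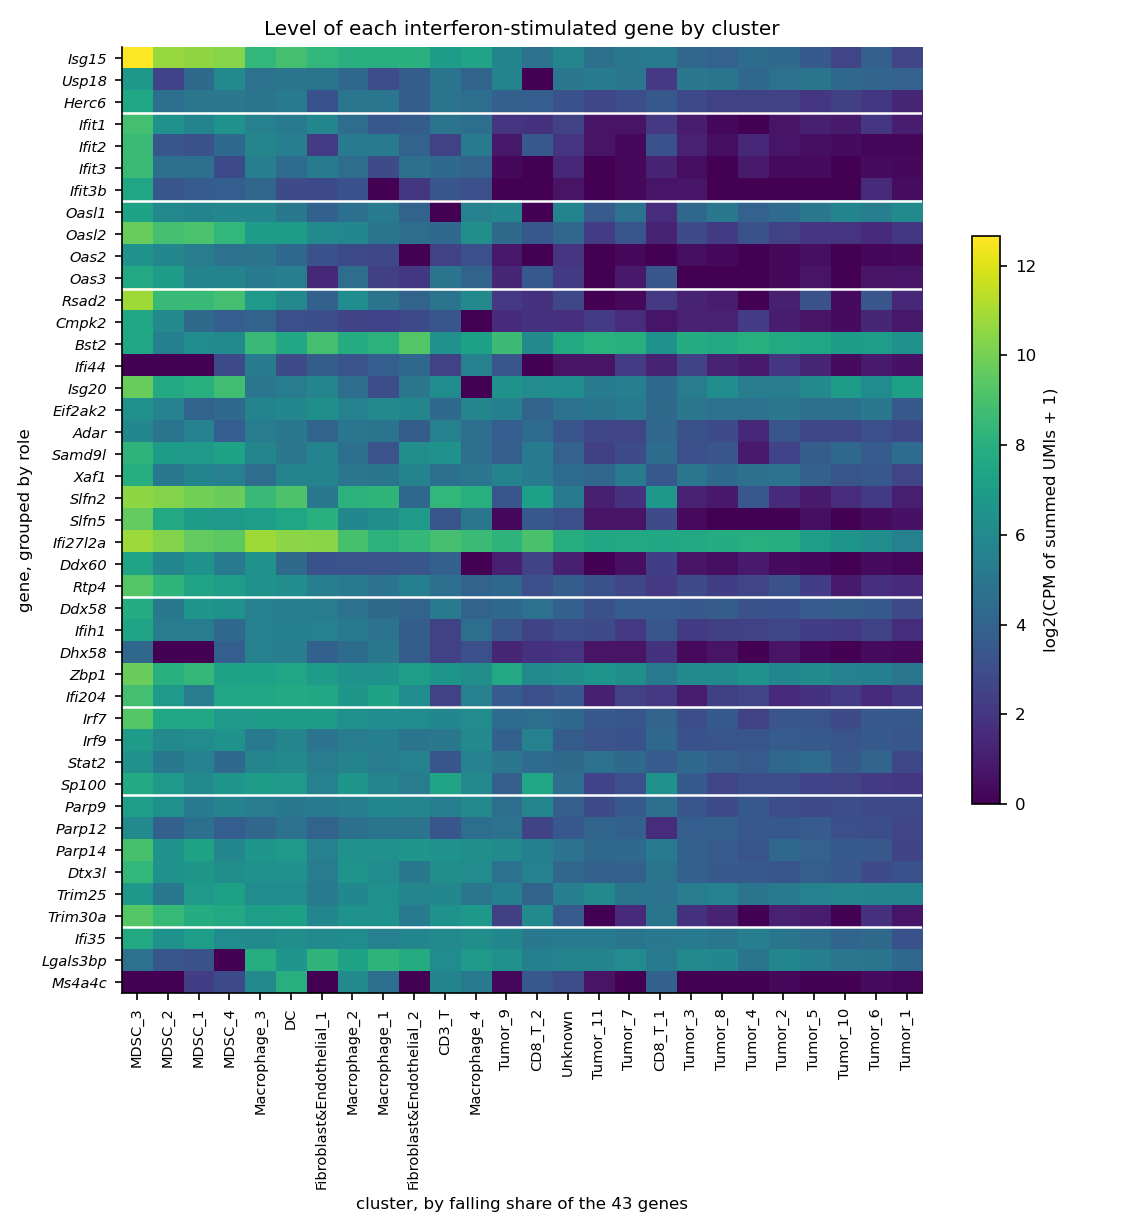
Level of each of the 43 genes, as log2 of CPM plus 1, in the 26 clusters ordered by falling share of the genes; white lines separate the functional groups. The MDSC_3 column is brightest for 36 genes, while Bst2, Lgals3bp, Ifi44 and Ms4a4c follow other clusters.

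Cells of unequal depth were compared after each was reduced to 1000 UMIs by calculating the expected number of the 43 genes that would keep a UMI. The mean was 10.4 genes per cell in MDSC_3 (106 of 180 cells deep enough, median depth 1059 UMIs before reduction). It was 4.75 in MDSC_2, 4.20 in DC, 4.18 in MDSC_4, 4.02 in MDSC_1, 1.63 in Tumor_9 and 0.578 in Tumor_1. Without reduction the means were 11.9 in MDSC_3 and 13.4 in Tumor_9, whose cells held a median of 20880.5 UMIs. At 1000 UMIs, Isg15 had a UMI in 93.5% of MDSC_3 cells, against 44.04% to 56.0% in the other MDSC clusters and 2.46% in CD8_T_2. Rsad2 had one in 54.9% of MDSC_3 cells, 14.9% to 23.6% of the other MDSC cells and 0.0685% of CD8_T_2 cells. The unreduced shares for Isg15 were 94.4% in MDSC_3, 45.3% to 59.1% in the other MDSC clusters and 7.09% in CD8_T_2, with a median of 2591 UMIs in the last. For Rsad2 they were 58.9% in MDSC_3, 20.8% to 22.7% in the other MDSC clusters and 0.787% in CD8_T_2.

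Single cells of MDSC_3 ranged from 0.368% to 10.2% of UMIs in the 43 genes, with a median of 1.99%. None of its 180 cells lacked these genes altogether. In MDSC_1, 14 of 245 cells had no UMI of them, and the highest cell reached 3.71%. The 90th percentile of MDSC_1, 1.58%, was thus below the median cell of MDSC_3, with median depths of 950 and 1059 UMIs, and with 140 of 245 and 74 of 180 cells under 1000 UMIs.

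**Figure D3:**
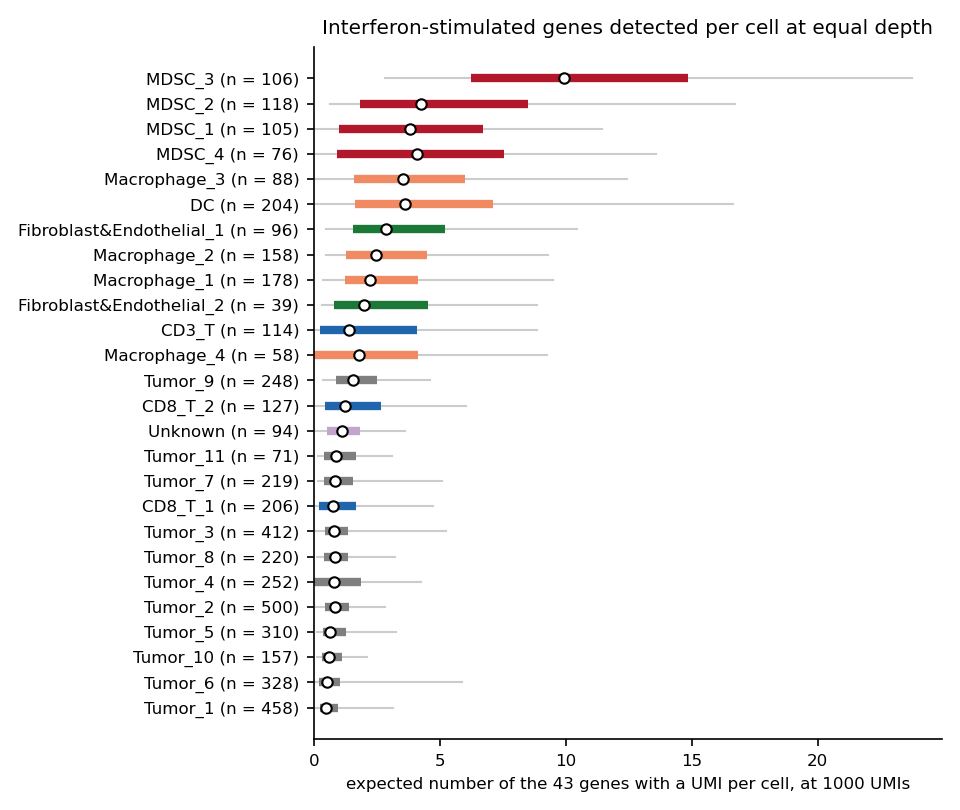
Expected number of the 43 genes with a UMI per cell when each cell is reduced to 1000 UMIs; cells with fewer UMIs are left out and n counts those kept. White dots are medians, coloured bars the 10th to 90th percentile and thin lines the full range; the MDSC_3 median of 9.92 exceeds the 90th percentile of the other MDSC clusters, which is at most 8.50.

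The neutrophil-like clusters were then compared with each other. MDSC_3 gave 2.29% of its UMIs to the 43 genes and MDSC_1, MDSC_2 and MDSC_4 together 0.732%, a ratio of 3.13 (3.01 to 3.26). Among the 39 genes with at least 20 UMIs in the 2 groups together, 33 were at least 2-fold higher in MDSC_3 and 0 were 2-fold lower. Over all 4034 genes with that many UMIs, 5.55% were 2-fold higher and 9.05% 2-fold lower. Ifit2, Ifit3, Ifit3b, Usp18, Herc6, Eif2ak2 and Parp12 passed the minimum only through their UMIs in MDSC_3, and each counts among the 33. With a minimum of 50 UMIs, 27 of 32 were 2-fold higher, beside 5.47% of all genes. The median ratio was 3.12 over the 39 genes and 0.941 over all. In 38 of the 39, MDSC_3 was the highest of the 4 clusters, Trim25 being the exception, against 20.2% of all genes. The authors' clusters were made from these same cells, so this is a description of MDSC_3 and no test of it. The IgG list of cells put 40 cells in MDSC_3 against 180 here, and a cluster mostly of 1 library may be that library and not a type of cell.

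Of the IFIT genes, whose family includes proteins that bind viral RNA, Ifit2, Ifit3 and Ifit3b had the highest ratios. Ifit2 was at 399 CPM in MDSC_3 and at 7.87, 9.54 and 18.9 CPM in MDSC_1, MDSC_2 and MDSC_4, a ratio of 35.4 (16.5 to 90.7). Ifit3 was at 390 CPM against 23.6, 23.9 and 6.30 CPM, a ratio of 20.2 (11.01 to 40.6). The ratio was 16.1 for Ifit3b (41 UMIs in MDSC_3) and 6.35 for Ifit1 (106 UMIs). All 3 lower clusters were thus far below MDSC_3 for each of the 4 IFIT genes. Ifit3 and Ifit3b may share reads: of the 50-base words in the last 500 bases of Ifit3 transcripts, 14.9% also occur in Ifit3b.

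The ISG15 system attaches the ubiquitin-like ISG15 to other proteins. Isg15 itself, the gene with the most UMIs of the list in MDSC_3 (28.2% of the genes' sum), was at 6457 CPM there. MDSC_2 had 1689, MDSC_1 1520 and MDSC_4 1309 CPM, a ratio of 4.24 (3.90 to 4.61) for the 3 pooled. Herc6, the ligase of ISG15 in mice, had a ratio of 6.74 (3.81 to 12.4). Usp18, the protease that removes ISG15 and dampens the interferon receptor, had 24 UMIs in MDSC_3 and a ratio of 4.13 (2.11 to 8.33).

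Rsad2 encodes viperin, which makes a chain-terminating nucleotide. It was at 1878 CPM in MDSC_3, 466 in MDSC_4, 377 in MDSC_2 and 362 in MDSC_1, a ratio of 4.77 (4.07 to 5.61). Cmpk2, its neighbour on chromosome 12, had a ratio of 6.06. Of the 13 other antiviral effectors past the minimum, Rsad2 and Cmpk2 among them, 10 were 2-fold higher. Bst2, or tetherin, which holds virus particles at the cell surface, had a ratio of 3.13 on low levels (186 and 59.4 CPM). Ifi27l2a was at 1802 against 925 CPM, a ratio of 1.95, and Slfn2, a Schlafen protein needed by resting lymphocytes and myeloid cells, at 1430 against 1057 CPM, a ratio of 1.35 (1.18 to 1.55). Adar, which edits double-stranded RNA, had a ratio of 1.79 with an interval that held 1 (0.819 to 3.79).

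The OAS proteins make oligoadenylates that activate RNase L, and Oasl1 and Oasl2 are their relatives. Of 4, 3 were 2-fold higher, with ratios of 2.12 (Oas2) to 2.91 (Oasl1). Oasl2 was high in all neutrophil-like clusters, at 850 CPM in MDSC_3, 543 in MDSC_1, 472 in MDSC_2 and 334 in MDSC_4, a ratio of 1.83. The sensors Ddx58 (RIG-I), Ifih1 (MDA5), Zbp1 and Ifi204 were 3.12 to 4.99 times higher, Ifi204, a sensor of DNA, at 465 against 98.0 CPM (4.74). Dhx58 had 6 UMIs in all and was not called.

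Among the transcription factors, Irf7 was at 638 CPM in MDSC_3 and at 189, 191 and 113 CPM in MDSC_1, MDSC_2 and MDSC_4, a ratio of 3.74 (2.89 to 4.86). Stat2 had 19 UMIs in MDSC_3 and a ratio of 2.38 (1.22 to 4.61), and Irf9 a ratio of 1.75 (1.05 to 2.88). Of the 6 PARP and ubiquitin ligase genes, 5 were 2-fold higher, from 2.43 for Parp9 to 4.61 for Parp14. Trim25, the ligase that activates RIG-I, had the lowest ratio of all, 1.14 (0.678 to 1.86). Ms4a4c had 0 UMIs in MDSC_3 and 2 in the other clusters, and no fold is given.

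Other pathway genes were read in the same 2 groups. Of the 7 receptor and kinase genes past the minimum, 0 were 2-fold higher and 1 was 2-fold lower: Ifngr1, a chain of the interferon gamma receptor, at 0.389. Ifnar1 had 6 UMIs in MDSC_3 and a ratio of 0.551, and Ifnar2 a ratio of 0.817. Irf1, a transcription factor that interferons induce, was 3.90 times higher. Socs1, an inhibitor of JAK kinases, was at 784 against 148 CPM, a ratio of 5.30. Interferon gamma-induced genes were 2-fold higher in 15 of 16, with a median of 3.70. Cxcl10, a chemokine of T cells, led them at 2542 against 125 CPM. Inflammatory NF-kB genes had a median ratio of 1.00, with 2 of 13 higher and 1 lower. Among markers, neutrophil genes summed to 34116 CPM in MDSC_3 and 68430 in the others, and monocyte genes to 1320 and 472 CPM. Of the monocyte sum in MDSC_3, 1182 CPM were Plac8, while Ly6c2 was at 120 CPM, Ccr2 at 13.3, Chil3 at 4.43 and Vcan at 0. The part of these differences in the result was not tested.

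The hepatoma clusters formed the second comparison. Tumor_9 (248 cells) gave 0.181% of UMIs to the 43 genes, and the 10 other Tumor clusters (2965 cells) 0.0838%, a ratio of 2.16 (2.11 to 2.21). Of 39 genes with at least 20 UMIs, 25 were at least 2-fold higher in Tumor_9 and 0 were 2-fold lower, beside 3.46% and 4.13% of all 12483 genes. Ddx60, with 6 UMIs in Tumor_9, passed the minimum only through them and counts among the 25. With a minimum of 50 UMIs, 22 of 34 were 2-fold higher, beside 2.39% of all genes. The median ratio was 2.30 over the 39 and 1.06 over all. Tumor_9 was the highest of the 11 clusters in 29 of the 39, against 9.11% of all genes. Here too the clusters were made from these same cells, so this is a description of Tumor_9 and no test of it. Neutrophil markers summed to 12.4 CPM in Tumor_9 and 13.1 in the others, T cell markers to 2.14 and 2.63 CPM, and hepatoma markers to 11122 and 13248 CPM.

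Slfn2 had the highest ratio, 5.09 (3.54 to 7.23), at 9.32 CPM in Tumor_9. Tumor_4, whose cells held a median of 2483 UMIs, had 9.72 CPM of it, and the other Tumor clusters 0.809 to 3.51 CPM. Parp14, a mono-ADP-ribosyltransferase, followed with 62.4 CPM in Tumor_9, 5.04 to 18.8 CPM in the other 10 clusters, and a ratio of 4.73 (4.13 to 5.39). Oasl2 had a ratio of 4.55 (3.58 to 5.75), and Dhx58 and Oas3, with 8 UMIs each in Tumor_9, of 4.46 (1.70 to 10.6). Among the sensors, Zbp1, which binds Z-form nucleic acids and can start necroptosis, was at 196 CPM in Tumor_9 and 30.4 to 94.0 CPM elsewhere, a ratio of 3.502 (3.26 to 3.76). Ifi204 had a ratio of 4.37.

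Bst2 was at 410 CPM in Tumor_9 and at 90.4 (Tumor_1) to 272 CPM (Tumor_11) in the other clusters, a ratio of 2.30 (2.19 to 2.41). Isg15 was at 51.7 CPM, against 5.23 (Tumor_10) to 32.3 CPM (Tumor_7), a ratio of 3.39 (2.95 to 3.90). For both genes every other Tumor cluster was below Tumor_9. Irf7 had a ratio of 2.22, Stat2 of 2.02, Usp18 of 2.01, Ifi27l2a of 1.92 and Irf9 of 1.45.

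The IFIT genes, which had high ratios in MDSC_3, had few UMIs in Tumor_9. Of these 4 genes, 3 passed the minimum and 1, Ifit1, was 2-fold higher. Ifit1 had 15 UMIs in Tumor_9 and a ratio of 2.83 (1.49 to 5.06), and Ifit2 had 4 UMIs and 1.54 (0.393 to 4.38). Ifit3 had 1 UMI in Tumor_9 against 14 in the others, and Ms4a4c 1 against 6, both under the minimum. Ifit3b had 0 against 23 UMIs, and a count of 0 allows up to 3 UMIs, or 1.45 times the level of the others. Of these 23 UMIs, 12 came from 1 Tumor_6 cell described below, which also held UMIs of Ifit1 and Rsad2. Rsad2 had a ratio of 1.19 (0.677 to 1.97). Other low ratios were 0.987 for Trim25, 1.24 for Samd9l, a restrictor of translation, and 1.29 for the exonuclease Isg20.

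**Figure D4:**
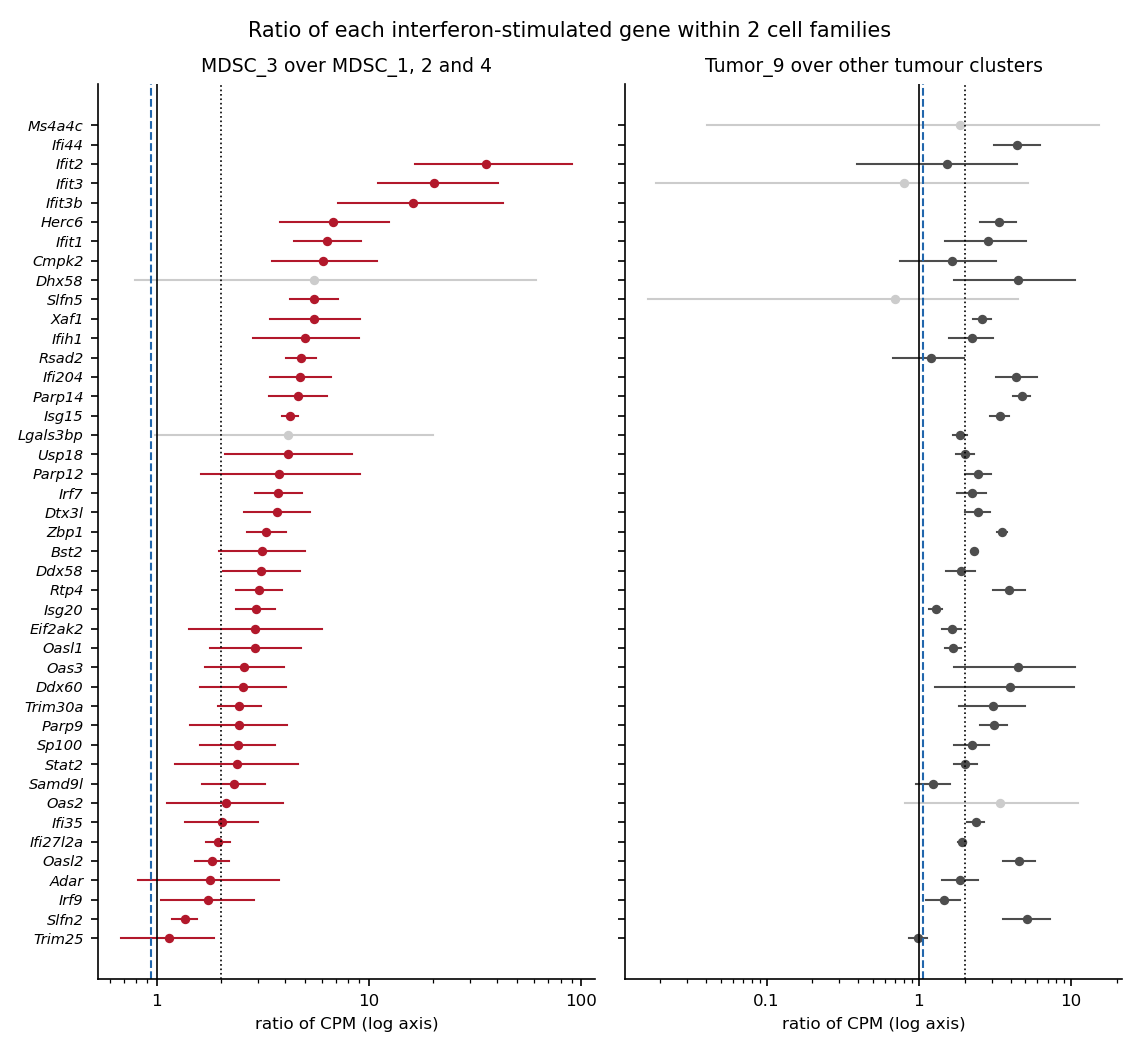
Ratio of CPM for each gene, on a log axis with exact 95% intervals, in MDSC_3 against MDSC_1, MDSC_2 and MDSC_4 (left) and in Tumor_9 against the other 10 Tumor clusters (right). Grey points had under 20 UMIs, genes with a count of 0 are not drawn, the dotted line is 2-fold and the dashed line the median of all genes; Ifit2, Ifit3 and Ifit3b are at the top left at 35.4, 20.2 and 16.1.

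Rsad2, Ifit1 and Ifit3b transcripts in hepatoma clusters were concentrated in few cells. The 176 Rsad2 UMIs of all 3213 Tumor cells came from 47 cells, and 59 of them (33.5%) from 1 cell of Tumor_6. Ifit3b had 23 UMIs in 6 cells, 12 of them in that same cell, which also gave 20 of 74 Ifit1 UMIs. The 33 Ifit2 UMIs were spread over 31 cells and the 15 Ifit3 UMIs over 13, and 12335 Bst2 UMIs came from 2702 cells, with at most 36 in 1 cell. This Tumor_6 cell was looked at after its values were seen. It had the highest share of the 43 genes (0.792%) among the 2939 Tumor cells with at least 5000 UMIs, where the median was 0.0791% and the 99th percentile 0.314%. It held 34589 UMIs, with 33 of the 43 genes detected, among them 26 of Oasl1, 21 of Isg20, 19 of Isg15 and 11 of Usp18. The liver transcripts Alb (407 UMIs) and Afp (162) and the keratin Krt18 (234) were abundant, and S100a8, Csf3r, Ptprc, Tyrobp and Lyz2 were at 0. Its doublet score was not among the top 5%. The doublet caller predicted too few doublets in this library to have worked, so the score cannot show that this was a single cell.

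The next Tumor cell by share, in Tumor_7 (0.725% of 20970 UMIs), had a different set. It held 40 UMIs of Isg15, 31 of Bst2, 12 of Zbp1 and 95 of Cxcl10, and 0 of Rsad2, Ifit1, Ifit2, Ifit3 and Ifit3b. The third, in Tumor_3 (0.579% of 17086 UMIs), had 9 UMIs of Rsad2, 7 each of Isg15 and Ifit1, 6 of Ifit3b and 19 of Cxcl10. Without the Tumor_6 cell the Tumor_9 ratio of Rsad2 became 1.89 (1.06 to 3.19) and that of Ifit1 4.28 (2.19 to 7.95).

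Immune and hepatoma clusters were compared next, with 1985 and 3213 cells. MDSC_5, Unknown, Adipocyte and the Fibroblast&Endothelial clusters were on neither side. The 43 genes took 0.391% and 0.0918% of UMIs, a ratio of 4.26 (4.20 to 4.32). Of the 43, 34 were at least 2-fold higher in immune clusters and 0 were 2-fold lower, beside 27.3% and 20.5% of 13752 genes. Ms4a4c, Slfn5, Ifit3 and Oas2 passed the minimum only through their UMIs in immune clusters, and each counts among the 34. With a minimum of 50 UMIs, 34 of 43 were again 2-fold higher, beside 25.3% of all genes. The median ratio was 6.42 over the 43 genes and 1.10 over all genes. Depth differed between the sides, and among cells with at least 2000 UMIs the ratio of the shares was 3.44. Without MDSC_3 it was 3.66.

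The highest ratios belonged to Ms4a4c, a membrane protein of leukocytes, with 482 UMIs in immune and 7 in Tumor cells (536, interval 258 to 1341), Slfn5 (343), Slfn2 (155), Ifit3 (105) and Ifit2 (72.0). Rsad2 had a ratio of 42.96 (36.6 to 50.7), Ifi204 of 32.9, Ifit1 of 29.6, Isg15 of 27.2 and Irf7 of 9.17. Without the single Tumor_6 cell, the ratio was 64.6 for Rsad2, 40.5 for Ifit1, and 58.0 instead of 27.8 for Ifit3b. Ifi27l2a, at 711 and 168 CPM, had a ratio of 4.22, Irf9 of 4.19 and Stat2 of 2.26. Hepatoma markers summed to 761 CPM in the immune clusters and 13073 CPM in the Tumor clusters, and the part of free hepatoma RNA in the immune levels was not tested.

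Of the 43 genes, 4 had a pooled ratio below 1, and the intervals of Usp18 and Oasl1 did not hold 1. Usp18 was at 17.3 CPM in immune and 26.8 in Tumor cells, a ratio of 0.646 (0.540 to 0.769), and Oasl1 at 29.5 and 36.1 CPM, a ratio of 0.818 (0.712 to 0.935). Bst2 (188 and 197 CPM, ratio 0.955, 0.904 to 1.01) and Isg20 (71.6 and 72.2 CPM, ratio 0.992, 0.908 to 1.08) had intervals that held 1. Trim25 had a ratio of 1.37. Clusters with many UMIs weigh most in these pooled levels, and immune clusters differed. Oasl1 was at 51.2 to 164 CPM in MDSC_1 to MDSC_4, and at 0 in CD3_T and CD8_T_2. Isg20 was at 215 to 841 CPM in MDSC_1 to MDSC_4, and at 0 to 30.2 CPM in the macrophage clusters. Tumor cells, with most UMIs of the library, held 87.5% of all Usp18, 85.9% of Oasl1, 85.1% of Isg20 and 82.1% of Bst2 UMIs, but 1.39% of Ms4a4c and 1.51% of Slfn5 UMIs.

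Among the hepatoma clusters, Tumor_1, with the lowest share of the 43 genes, had the highest levels of Isg20 (145 CPM), Oasl1 (66.4 CPM) and Samd9l (20.3 CPM). Tumor_10, with a share of 0.0717%, had 124, 50.9 and 18.0 CPM of these genes, and its Samd9l interval overlapped that of Tumor_1. Tumor_11, with a share of 0.102%, had 35.9, 11.4 and 4.19 CPM. Tumor_9 had 91.1, 57.3 and 13.2 CPM.

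The last comparison set the cluster named DC (208 cells) against Macrophage_1 to Macrophage_4 (532 cells). The 43 genes took 0.537% and 0.338% of UMIs, a ratio of 1.59 (1.54 to 1.64). Of 43 genes, 6 were at least 2-fold higher in DC and 2 at least 2-fold lower, beside 3.44% and 13.5% of 9867 genes. The median ratio of all genes was below 1 here (log2 of −0.14), and with it set to 1, 11 of the 43 were 2-fold higher, beside 5.01% of all genes. Leaving out Macrophage_3, which itself had 0.568%, gave 12, beside 4.27% of all genes, and a ratio of 1.81.

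Ms4a4c, which shares 10.5% of its 3' 50-base words with Ms4a4b, had the highest ratio, at 256 CPM in DC and 23.2 to 62.3 CPM in the macrophage clusters (5.45, interval 4.47 to 6.64). Oas3 had a ratio of 2.35, Slfn5 of 2.35, Isg20 of 2.32, Ifi27l2a of 2.30 and Oasl2 of 2.15. Ifi27l2a alone gave 26.6% of the genes' UMIs in DC, at 1428 CPM, but Macrophage_3 had 1832 CPM. Usp18 had a ratio of 1.85, Isg15 of 1.83, Ifit1 of 1.80, Ifi204 of 1.61, Irf7 of 1.52, Stat2 of 1.30 and Irf9 of 1.27. Rsad2 (1.01, interval 0.738 to 1.35) and Ifit3 (1.07, 0.608 to 1.78) had intervals that held 1.

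Lower in DC were Lgals3bp, a secreted galectin-3 binding glycoprotein, at 98.1 against 217 CPM (0.452, interval 0.360 to 0.561), and Ifi44, with 6 UMIs (0.421, interval 0.148 to 0.970). Bst2 had a ratio of 0.703 (0.595 to 0.827), Parp9 of 0.694 (0.458 to 1.02) and Ddx60 of 0.971. Neutrophil markers summed to 4009 CPM in DC and 1299 in the macrophages, and plasmacytoid dendritic cell markers to 77.6 and 77.9 CPM, with Siglech at 1.08 CPM in DC. Of 10 cell cycle genes, 8 were 2-fold lower in DC. The part of these differences in the result was not tested.

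Interferon transcripts themselves could be read for few genes. Of 21 listed interferon genes, 3 had a row: Ifng, Ifnk and Ifnz. Ifng was at 779 CPM in CD4_T (47 cells), 302 in CD8_T_1, 298 in CD8_T_2, 157 in Macrophage_2, 56.2 in CD3_T and 8.86 in MDSC_3. Of the 3 clusters with most Ifng, CD4_T gave 0.357% of its UMIs to the 43 genes, CD8_T_2 0.168% and CD8_T_1 0.0986%. Macrophage_2 also held 839 CPM of T cell markers, against 79.4 to 333 CPM in the other macrophage clusters, and their part in its Ifng level was not tested.

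Many of the 43 genes also answer to interferon gamma, so a list of 20 genes typical of that response (Cxcl9, Cxcl10, guanylate-binding proteins, immunity-related GTPases, immunoproteasome subunits and others) was read beside them. Over the 26 clusters the log2 shares of the 2 lists had Pearson's r of 0.819 and Spearman's rho of 0.809. These points share 1 library and differ in depth, and the values are a description. Relative to the interferon gamma list, the 43 genes were highest in Fibroblast&Endothelial_1, at 0.424% against 0.101% (4.19 times), MDSC_2 (2.87), MDSC_4 (2.56) and Macrophage_3 (2.28). They were lowest in Tumor_9 (0.490), Macrophage_1 (0.544) and CD8_T_1 (0.584). In Tumor_9, 19 of 19 interferon gamma-induced genes past the minimum were 2-fold higher than in the other Tumor clusters, with a median ratio of 4.39. Cxcl9 had 14.1, Gbp5 16.1 and Serpina3g 22.1. Socs1 was 5.09 times higher there. Of 9 receptor and kinase genes 0 were 2-fold higher in Tumor_9, with Ifnar2 at 1.43, and 1 was lower, Ifnlr1 at 0.387.

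**Figure D5:**
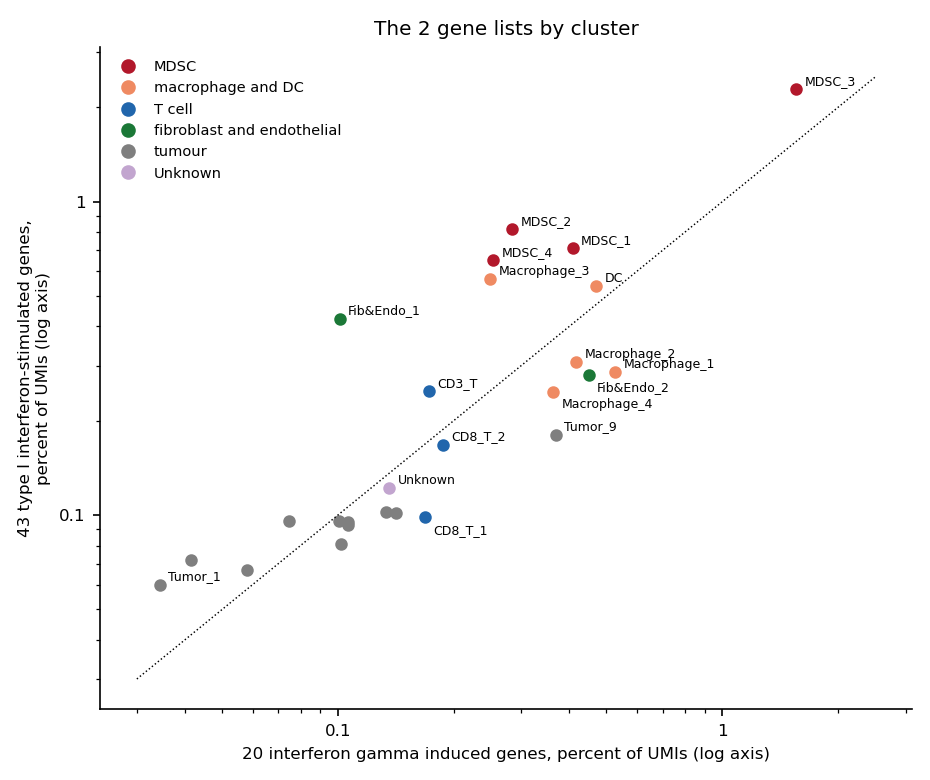
Share of UMIs in the 43 type I interferon-stimulated genes against the share in 20 interferon gamma-induced genes, in percent on log axes, for 26 clusters; the dotted line marks equal shares. MDSC_3 is at the upper right (1.56% and 2.29%), Fibroblast&Endothelial_1 lies above the line and Tumor_9 below it.

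How closely each gene followed the group was described by Pearson's r of log2 CPM, with 20 added, with the mean of the 43 genes over the 26 clusters. It was 0.987 for Irf7, 0.972 for Isg15, 0.961 for Dtx3l, 0.957 for Ifit1 and 0.955 for Rtp4. At the other end were Bst2 at −0.072, Lgals3bp at 0.0455, Ifi44 at 0.255, Usp18 at 0.343 and Ms4a4c at 0.345. Each gene is part of the mean it is set against. Bst2 was highest in Fibroblast&Endothelial_2 (623 CPM), Fibroblast&Endothelial_1 (477) and Tumor_9 (410), and lowest in MDSC_2 (42.9), although its promoter window has the ISRE letters shown above. Ifi44 had 0 UMIs in MDSC_1, MDSC_2 and MDSC_3, 1 in MDSC_4 and 35.3 CPM in Macrophage_3.

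Among genes outside the list with at least 200 UMIs, the 10 with the highest r were Rnf19b (0.951), Nod1 (0.943), Trim30d (0.942), Slfn8 (0.941), Samhd1 (0.938), Susd6 (0.933), Sidt2 (0.925), Fgl2 (0.924), N4bp1 (0.923) and Morc3 (0.919). Samhd1, a dNTPase that limits retroviruses, was at 2148 CPM in MDSC_3, 957 in MDSC_1, 1088 in MDSC_2 and 321 in MDSC_4. Nod1, a sensor of bacterial peptidoglycan, was at 283 CPM in MDSC_3. With 5 instead of 20 CPM added, 8 of these 10 genes were again among the top 10.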

How the data were processed

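The submitters' processing notes name Cell Ranger 2.1.1 for these single-cell 3' libraries. Build, cell filters and clustering method: not given in the sources used here. The authors deposited natural log values: each gene's UMIs were divided by the cell's total, multiplied by 10000 and increased by 1 before the log was taken, as the values themselves show. Whole UMIs were recovered from all 15274637 values above 0 within 0.001, and they summed to the recovered depth in all 5482 cells. Cluster names came from the authors' deposited cell list. The IgG cell list was used only to count cells.

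UMIs were summed over the cells of a cluster and scaled to CPM. No p-value was computed, since each treatment had 1 library. Ratios used genes with at least 20 UMIs in the 2 groups together, a count of 0 was set to 3 as a bound, and 2-fold marked a call. No cells were filtered. Scrublet, in scanpy 1.11.5, predicted 3 doublets (0.055% of cells), too few for the caller to have worked, so the 5% of cells with the highest score were left out as an alternative added after seeing the data. Other alternatives changed the UMI minimum, the fold, the depth of cells kept, the scaling and the weighting of clusters. The ratio and call steps were tested on simulated data. The simulated counts were Poisson, without the wider spread between cells given above, so they cannot show how well the intervals hold here. Python 3.11.15, numpy 2.4.6, pandas 2.3.3, scipy 1.17.1 and matplotlib 3.10.9 were used.

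The genes, lists, markers and comparisons were chosen with earlier results of these data known. In each comparison the values of 12 preset genes (Isg15, Rsad2, Ifit1, Ifit3, Irf7, Usp18, Bst2, Ifi27l2a, Ms4a4c, Ifi204, Stat2, Irf9) and of the 5 highest and 5 lowest ratios are given; genes of the single Tumor cells and of the Isg20, Oasl1 and Samd9l pattern were chosen after their values were seen. Shared 3' sequence was checked on GENCODE M21 transcripts. Some results are not reported here.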

Additional observations from a re-analysis of the deposited data

How the results depend on the processing

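No paired analysis was possible because each treatment had 1 library. None of the 4 ratios of shares turned its direction under the alternatives run, and ratios of single genes were not recomputed except without 1 Tumor_6 cell. For MDSC_3 against the other MDSC clusters, the ratio of shares was 3.01 with cells of at least 1000 UMIs, 2.89 with at least 2000 and 2.84 without Isg15, and 21 of the 39 genes passed 3-fold, beside 1.96% of all genes. For Tumor_9 it was 2.30 as the median over genes, 2.04 without ribosomal and mitochondrial genes in the totals and 2.09 with clusters weighted alike, and 14 genes passed 3-fold, beside 1.19% of all genes. Leaving out 1 Tumor_6 cell, chosen after seeing the data, left the ratios of shares in both Tumor comparisons within counting error. The ratios of Rsad2, Ifit1 and Ifit3b in immune against Tumor clusters rose, that of Rsad2 past its interval, as given above.

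For DC against macrophages, the ratio was 1.87 as a mean over cells, 1.43 without Ifi27l2a, 1.35 as the median over genes, 1.52 with clusters weighted alike and 1.81 without Macrophage_3 (added after seeing the data). The count of 6 genes became 17 at 1.5-fold (9.91% of all genes), 1 at 3-fold (1.08%), 11 with the median of all genes set to 1 (5.01%) and 12 without Macrophage_3 (4.27%). For immune against Tumor clusters, the ratio was 3.94 and 3.44 with at least 1000 and 2000 UMIs, 6.64 as a mean over cells, 5.45 without Bst2 and Ifi27l2a, 6.42 as the median over genes, 3.53 without ribosomal and mitochondrial genes, 5.68 with clusters weighted alike and 3.66 without MDSC_3 (added after seeing the data). The cause of these shifts was not tested. The count of 34 genes ranged from 31 at 3-fold (19.7% of all genes) to 38 at 1.5-fold (36.7%).

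In the MDSC_3 and in the Tumor_9 comparison, 4 of the 43 genes each had under 20 UMIs and were not called.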

Other observations

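The stromal clusters differed from each other. In Fibroblast&Endothelial_1, whose cells had 22339 CPM of fibroblast markers and 2.67 CPM of endothelial markers, Ifi27l2a (1354 CPM), Bst2 (477) and Isg15 (327) gave most UMIs of the 43 genes, and Slfn5 reached 258 CPM, the highest level outside MDSC_3. Lgals3bp was at 299 CPM there and at 297 CPM in Macrophage_1. Fibroblast&Endothelial_2, with 5457 CPM of fibroblast, 800 CPM of endothelial and 5504 CPM of hepatoma markers, had 623 CPM of Bst2 but 347 CPM of Ifi27l2a and 112 CPM of Slfn5. Its share of interferon gamma-induced genes was 0.449%, against 0.101% in Fibroblast&Endothelial_1.

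T cells differed between clusters. Sp100, a nuclear body protein, was at 173 CPM in CD8_T_2, 169 in CD3_T, 86.3 in CD8_T_1 and 80.3 in CD4_T, against 6.64 CPM in Tumor cells, and Slfn2 was at 334 CPM in CD4_T, 333 in CD3_T, 143 in CD8_T_2 and 106 in CD8_T_1. Ifi27l2a gave 55.4% of the 43 genes' UMIs in CD4_T (47 cells) and was at 1977 CPM there. CD3_T had 4362 CPM of NK cell markers beside 2052 CPM of T cell markers.

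Across the 245 cells of Tumor_9 with at least 5000 UMIs, the share of the 43 genes and that of the interferon gamma list had Spearman's rho of 0.500. In the other Tumor clusters rho ranged from 0.432 (Tumor_1) to 0.679 (Tumor_7), and in Macrophage_2 it was 0.273. Cells of 1 cluster share a library, and the values are a description.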
